A study of Drosophila melanogaster with 6 samples.

Results

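The regions described here are the anti-tango ChIP-seq peaks on the outer part of arm 3L, the left arm of chromosome 3 of Drosophila melanogaster. They are every peak whose centre lies at or below 22.08 Mb in FlyBase release 5 coordinates, a rule that uses position and neither width nor score. This gave 292 of the 408 peaks on 3L and 2.12% of the 13745 peaks in the whole list. The last peak inside the limit ran from 21954468 to 21954677 and the first outside it from 22260308 to 22260586, with 305630 bp free of peaks between them. The other peak nearest to the limit on the inner side ran from 21951995 to 21952215 (score 17.0), and the second one beyond it from 22572376 to 22572701 (score 8.07).

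The study made chromatin from wandering larvae of the third instar, cross-linked with formaldehyde, and sequenced 3 libraries of immunoprecipitated DNA and 3 of input DNA. Every library, input included, came from the strain Y cn bw sp, and no group had another genotype, treatment or age. All libraries share the alleles y[1] and oc[R3.2] on the X chromosome, then Gr22b[1] and Gr22d[1] with cn[1], CG33964[R4.2], bw[1] and also sp[1] on chromosome 2. On chromosome 3, which holds the peaks described here, they carry LysC[1] and lab[R4.2] as well as MstProx[1], GstD5[1] and Rh6[1]. The sex of the larvae is unknown, and the chromatin was not sorted by tissue or cell type, so a peak is a sum over all cells of the larva. The ChIP used a crude mouse monoclonal antibody against tango, whereas the title of the series names TCF. Which of the 2 proteins was precipitated was not settled, and the peaks are called anti-tango after the antibody.

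Tango is the fly homologue of the aryl hydrocarbon receptor nuclear translocator of mammals. It is a basic helix-loop-helix PAS protein that binds DNA as a dimer with a partner such as Trachealess in the trachea, Single-minded in the midline of the nervous system or Spineless in the antenna, the leg and the eye. TCF, or Pangolin, is the DNA-binding effector of Wingless signalling. A site bound by such a factor commonly gives a narrow peak, whereas a broad peak is a longer stretch called as 1 enriched region. Fly telomeres have no telomerase repeats and are instead built of telomeric retrotransposons (HeT-A, TART and TAHRE), followed inward by subtelomeric repeats. Which genes, repeats or motifs lie under the peaks was not determined here, because no sequence or annotation of release 5 was used.

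The 6 libraries are represented by 1 peak list from the authors. It gives each peak its first base, its last base and a score from the peak caller, whose scale is not given, so scores are compared only within this list. No library has a value of its own, read depth is unknown, and no replicate error can be attached to any peak. What follows is therefore a description of 1 list, without significance tests, and the intervals on shares and densities (95% Wilson and exact Poisson) cover counting error only. Neighbouring peaks are not independent, so these intervals are too narrow.

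The 292 peaks were unlike one another in shape. Their widths ran from 203 to 26370 bp with a median of 462.5 bp (interquartile range 348 to 739 bp), and their scores ran from 7.44 to 736 with a median of 20.4 (interquartile range 12.9 to 48.6). Together they covered 379 kb, or 1.72% of the outer part. Most peaks fell into 3 kinds, which were set apart by limits on width, score and spacing. A total of 133 (45.5%) were peaks in groups of at least 3 that were neither broad nor narrow and strong, 23 (7.88%) were broad, at 4 kb or more, and 25 (8.56%) were narrow and strong, with a width of up to 1 kb and a score no lower than 100. The remaining 111 (38.0%) were other single or paired peaks.

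At the telomere end of the arm, peaks followed one another at short intervals. The first 20 kb held 23 peaks, or 7.88% of all outer 3L peaks, beginning at base 128 and ending at base 19804. They covered 55.1% of these 19677 bp. The first 5 from the end lay at 128 to 896 (score 17.9), 1481 to 1799 (12.4), 2950 to 3189 (11.6), 3341 to 3950 (14.2) and 4211 to 5458 (16.6), and the last of these, 1248 bp wide, was the widest of the 23. All of them were weak. Scores ran from 8.85 to 24.7 with a median of 12.7, and 22 of the 23 were under 20. The highest score, 24.7, belonged to the innermost peak, at 19364 to 19804. Gaps between successive peaks were short, from 79 to 1150 bp with a median of 359 bp. Beyond the innermost peak followed 90472 bp with no peak at all, ended by a broad peak at 110277 to 119394.

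**Figure D1:**
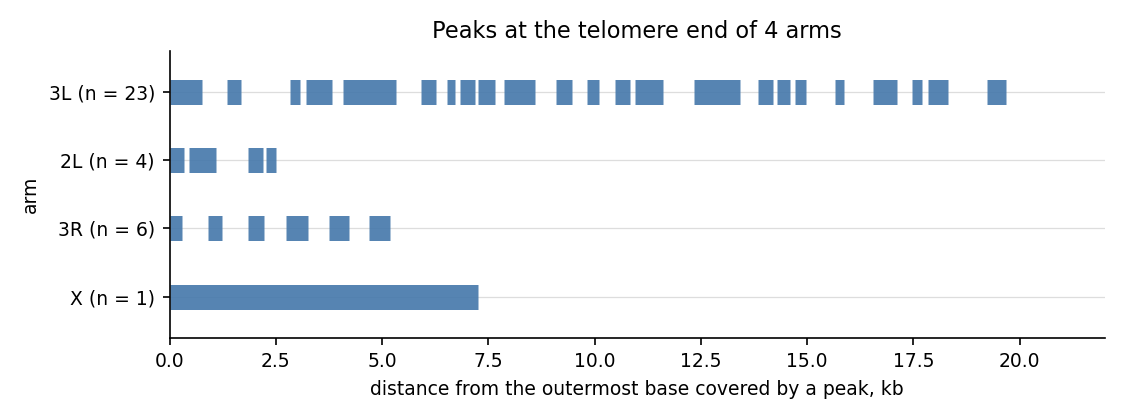
Each bar is 1 peak drawn to scale along the first 20 kb from the outermost base that a peak covers (x axis, kb) on the 4 arms compared (y axis, with the number of peaks). The 23 peaks of 3L run through nearly the whole window, whereas the 4 peaks of 2L end within 2510 bp and the 6 of 3R within 5186 bp, and X has a single peak of 7246 bp.

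The same window on other arms held fewer peaks. Counted from the outermost base under a peak, the telomere end of 2L had 4 peaks, that of 3R had 6 and that of X had 1. Peaks covered 54.2% of the window on 3L, 36.2% on X, 12.4% on 3R and 7.85% on 2L. Scores were low on 2L (median 12.3) and 3R (21.8) as well, whereas the 1 peak on X was a broad one with a score of 54.6. Wide peak-free stretches followed on these arms too, of 306030 bp on 2L, 95710 bp on 3R and 67265 bp on X. Where each assembled arm ends was not known here. On X the outermost peak began only at base 57138, so the windows may lie at different distances from the chromosome ends, and with 1 end per arm no test was possible.

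Along the arm the number of peaks per Mb varied from 3 to 37, with a median of 10.5 over 22 bins of 1 Mb. The mean density was 13.2 peaks per Mb (11.8 to 14.8), and 12.2 per Mb without the first 20 kb. The fullest bin was the first Mb with 37 peaks, or 12.7% of the total (9.33 to 17.0%), of which 23 were those at the very end and 14 lay further in. Among the 57 peaks of outer 3L that reached the list's median score of 57.7, it held 3.51%. Its highest peak, at 603939 to 604712, was narrow and had a score of 271. Second was 16 to 17 Mb with 26 peaks, led by a narrow peak at 16045725 to 16046375 with a score of 347. The bins at 2 to 3 Mb and 19 to 20 Mb held 21 peaks each. In the former the highest was a peak of 411 bp at 2164113 to 2164523 with a score of 92.0, and in the latter one of 732 bp at 19038529 to 19039260 with a score of 108. The emptiest bin was 4 to 5 Mb with 3 peaks, followed by 20 to 21 Mb with 5.

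**Figure D2:**
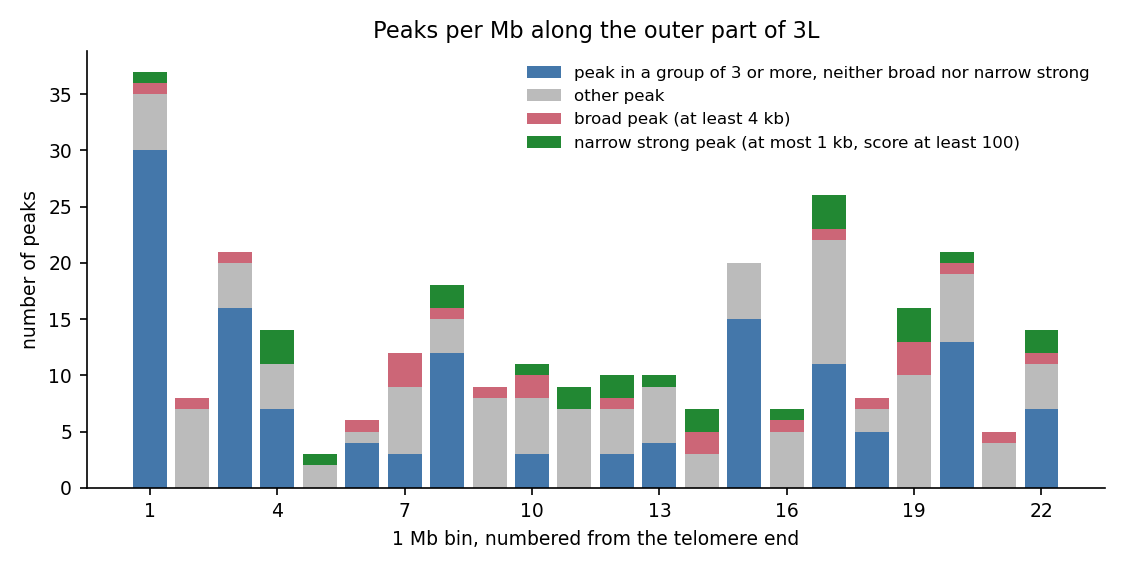
Bars give the number of peaks in each 1 Mb bin (y axis), numbered from the telomere end (x axis) and split into peaks in groups, other peaks, broad peaks and narrow strong peaks. The tall bars, at 37, 26, 21, 21 and 20 peaks, hold many grouped peaks, whereas broad peaks number at most 3 and narrow strong peaks at most 3 in any bin.

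The fullest bins held many grouped peaks, which by definition lie close together. They numbered 30 in the first bin, 16 at 2 to 3 Mb and 15 at 14 to 15 Mb. A further 13 lay at 19 to 20 Mb, and 8 of the 22 bins had 0. The bin at 16 to 17 Mb, second in peaks, held 11 grouped and 11 other peaks. Broad peaks were present in 17 bins, with no more than 3 in any. Narrow strong peaks occurred in 14 bins, again with at most 3 in each. When peaks with neighbouring centres within 5 kb were counted as 1 place, the range over bins narrowed to 3 to 14 places, with a median of 7.5. With the outer part divided into 3 equal lengths, there were 102, 90 and 100 peaks from the telomere inward, with median scores of 17.1, 22.9 and 21.6. These lengths held 7, 7 and 9 broad peaks and 6, 9 and 10 narrow strong ones.

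Long stretches carried no peak. Of the 291 intervals between successive peaks, 86 exceeded 100 kb and 39 exceeded 200 kb, against a median interval of 18408 bp. The longest ran from 5242219 to 6033729 (791511 bp). It was followed by 9931533 to 10408304 (476772 bp) and 3606038 to 4070405 (464368 bp).

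Groups of 3 or more held nearly as many peaks as stood outside them. A neighbouring centre lay within 5 kb for 175 of the 292 peaks (59.9%, 54.2 to 65.4%), and for 152 of the 269 peaks beyond the first 20 kb (56.5%). The share was 35.5% after peaks with gaps of up to 400 bp had been merged into 211 regions. Among the 57 peaks that reached the median score of the list, 7.02% had a neighbour within 5 kb that also reached it. Both settings take away neighbours by construction, so what the share rests on was not tested. Chaining neighbours within 5 kb over all 292 peaks gave 164 places, of which 117 were single peaks and 20 were pairs. The other 27 were groups of 3 or more that held 135 peaks (46.2%). The group at the telomere was the largest. The other 26 had 3 to 7 peaks over spans of 2211 to 7285 bp, with a median span of 3831 bp (interquartile range 3454 to 5369 bp). Their peaks were separated by short gaps, and over all 27 groups the median gap was 234 bp and 69 of 108 gaps (63.9%) were at most 400 bp. In the 26 groups beyond the first 20 kb, peaks covered a median of 64.4% of the span. Groups lay far from one another, at a median distance of 570 kb and never closer than 27531 bp.

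The 2 groups of 7 peaks were at 402780 to 409718 and at 2063548 to 2069003. In the former, 6 peaks scored between 11.0 and 13.9 and the last, at 409312 to 409718, scored 39.2. In the latter all 7 peaks lay between 9.08 and 17.3, with gaps of 114 to 1400 bp. The 2 groups of 6 were at 16677708 to 16681708, with scores of 7.48 to 21.5 over 4001 bp, and at 19390431 to 19396144, with scores of 8.27 to 22.6 over 5714 bp. Small weak peaks covered 54.2% and 48.3% of the span in the groups of 7, and 67.3% and 63.9% in those of 6. The 3 lowest-scoring peaks of the outer part also lay in groups, at 14718923 to 14719190 (7.44), 16677708 to 16677987 (7.48) and 14463165 to 14463378 (7.56).

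**Figure D3:**
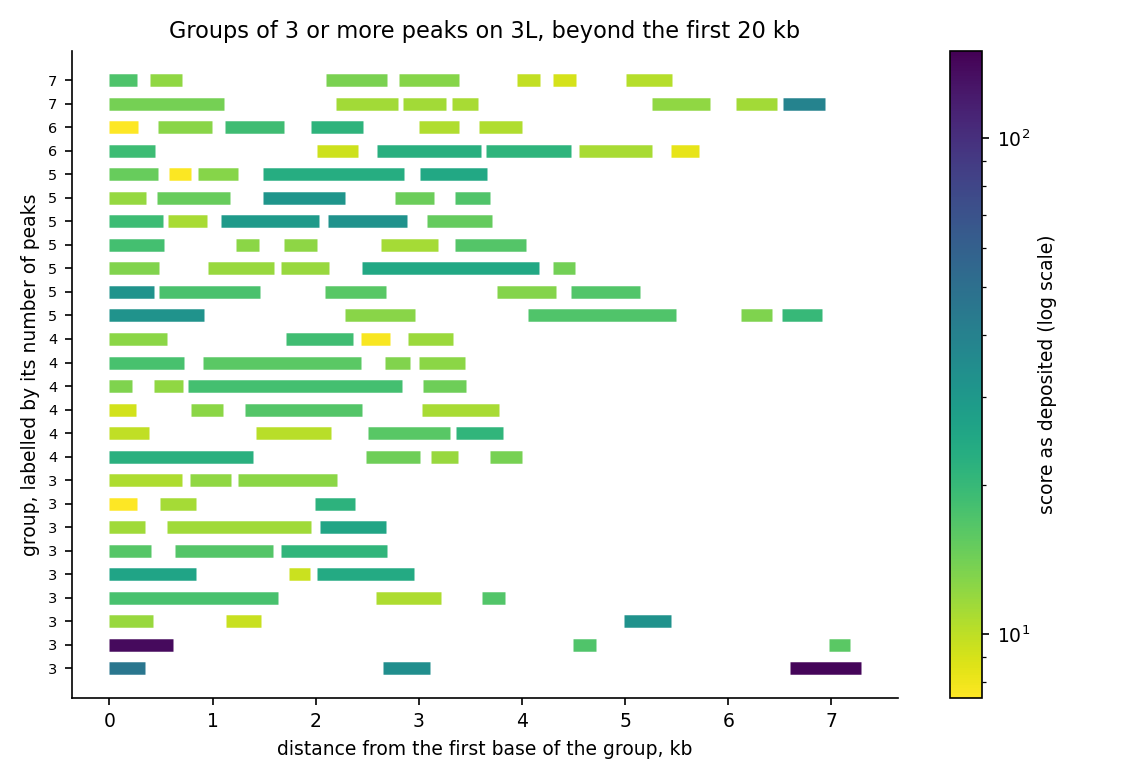
Each row is 1 of the 26 groups beyond the first 20 kb, with its peaks drawn to scale from the first base of the group (x axis, kb) and coloured by score on a log scale, and with its number of peaks on the y axis. Nearly all groups consist of weak peaks over a span of 2211 to 7285 bp, and the 2 with a peak of over 100 are among those with the widest gaps.

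Grouped peaks were weak almost without exception. Their median score was 13.3 (interquartile range 11.3 to 17.9), and 132 of the 135 scored under 40. Of the 27 groups, 25 had no peak of 40 or more. The limit of 40 lay just over the highest score in these 25 groups, 39.2, so the counts depend on it. The 3 stronger peaks lay in the other 2 groups, at 3377918 to 3385202, with scores of 45.9, 34.4 and 143.7, and at 21947495 to 21954677, with 139.7, 17.0 and 16.1. In both of these groups the gaps were wide, at 2252 to 3886 bp, so that peaks covered only 20.5% and 14.5% of the span. Among single peaks under 4 kb wide, 46 of 96 scored 40 or more (47.9%, 38.2 to 57.8%), against 3 of 135 in groups (2.22%, 0.76 to 6.33%). The median score of these single peaks was 36.7, and their median width of 422.5 bp was close to the 449 bp of grouped peaks. The same contrast was present on the other outer arms, where 37.0% of such single peaks on 2L, 54.5% on 3R and 35.5% on X scored 40 or more, against 4.08%, 0.79% and 10.4% of those in groups. Peaks in pairs, of which outer 3L had 40, were left out of this contrast. Their median score on outer 3L, broad peaks included, was 25.3, and the highest scored 347.

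Broad peaks carried most of the covered bases. The 23 peaks of at least 4 kb made up 227 of the 379 kb (60.0%), although they were 7.88% of the peaks. On the outer part of 3L the narrowest of them was 6082 bp wide and the next narrower peak was 2746 bp wide. This gap in width was not general, since 2 peaks of 3 to 6 kb lay on the centromere side of 3L and 2, 2 and 3 on the outer parts of 2L, 3R and X. Their scores were moderate and alike, from 49.1 to 75.7 with a median of 58.2 (interquartile range 54.0 to 65.5). The highest of the 23 thus had 1.54 times the score of the lowest. Within that range of scores lay only 12 peaks that were not broad.

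A width close to 9.1 kb recurred along the arm. Of the 23 broad peaks, 15 were between 9.0 and 9.2 kb wide (65.2%, 44.9 to 81.2%). They measured 9002 to 9142 bp with a median of 9100 bp, a spread that the limits of the set bound by construction. The first was at 110277 to 119394 and the last at 21299338 to 21308366, so the set reached from the telomere end to the inner limit. The highest-scoring, at 17078145 to 17087244 (score 75.7), and another at 16938882 to 16947981 (54.6) had exactly the same width of 9100 bp and stood 130163 bp apart, the closest of any 2 successive broad peaks. Further members with high scores were at 8474942 to 8484020 (72.0), 6214036 to 6223177 (67.5), 1154198 to 1163275 (61.7) and 18040847 to 18049848 (61.2). The lowest score of the set, and of all 23 broad peaks, was 49.1, at 2447581 to 2456651.

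The other 8 broad peaks scored 53.9 to 74.3. The widest peak of the arm, and of the whole list, ran from 6398844 to 6425213 over 26370 bp with a score of 74.3. The next ran from 13797706 to 13815915 over 18210 bp with a score of 72.6. Their widths were 2.90 and 2.00 times the median of the 9.1 kb set. A peak of 9207 bp at 20106799 to 20116005 (61.1) missed the 9.2 kb limit by a few bases. The 5 widest peaks were completed by this one, that at 6214036 (9142 bp) and one at 7909941 to 7919077 (9137 bp, score 54.0). The remaining 5 were 6082 to 8716 bp wide, among them the peaks at 9922817 to 9931532 (66.5) and 6880665 to 6888095 (64.5).

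Broad peaks stood alone. No other peak lay within 5 kb of the edges of 20 of the 23. The exceptions were the peak at 5034219 to 5043306, with a group of weak peaks that started 2686 bp beyond it, and 2 that had a shorter peak almost touching them. One of these ran from 13518297 to 13524378 (score 53.9) with a peak of 1617 bp and a score of 53.5 after a gap of 60 bp. The other ran from 18766805 to 18774155 (57.1), preceded by a peak of 1128 bp and a score of 48.0 at a gap of 127 bp. In each couple the shorter peak had a score close to that of the broad one. From edge to edge these couples measured 7759 and 8606 bp. Successive broad peaks were otherwise 130 kb to 2578 kb apart, with a median of 981 kb.

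**Figure D4:**
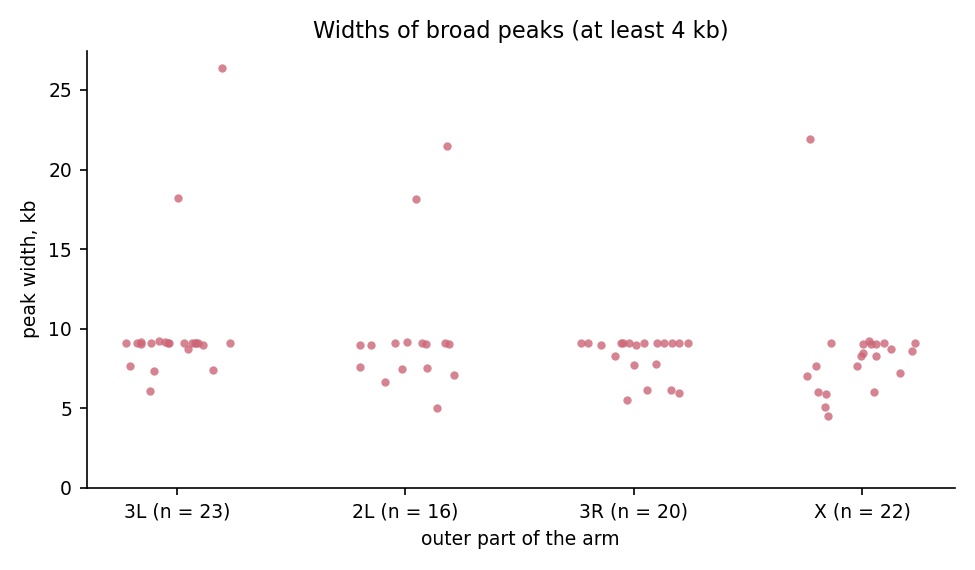
Each point is a broad peak on the outer part of 3L, 2L, 3R or X, with its width in kb on the y axis and the points spread sideways only to keep them apart. Points line up near 9.1 kb on each arm, with 15 of 23 on 3L between 9.0 and 9.2 kb, and the widest, at 26.4 kb, is on 3L.

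The recurring width was present on the other outer arms as well. Peaks of 9.0 to 9.2 kb numbered 15 of 23 broad peaks on 3L, 11 of 20 on 3R (55.0%, 34.2 to 74.2%), 6 of 16 on 2L (37.5%, 18.5 to 61.4%) and 6 of 22 on X (27.3%, 13.2 to 48.2%). The interval on 3L overlapped those on the other 3 arms, and the difference was not tested. The median score of broad peaks was alike, at 58.2 on 3L, 60.6 on 2L, 58.3 on 3R and 58.4 on X. A few broad peaks on 2L, 3R and X scored far higher, up to 1509, 560 and 1518, but on 3L none exceeded 75.7. Covered bases in broad peaks were 60.0% of the total on 3L, 54.5% on X, 52.3% on 3R and 46.4% on 2L. The centromere side of 3L, beyond 22.08 Mb, spanned 2.46 Mb and had only 1 broad peak among 116, with a width of 5349 bp. No peak of 9.0 to 9.2 kb was thus present there, but 1 broad peak is too few to compare such a share.

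Narrow strong peaks were chosen for a score of at least 100, so their high scores describe the choice. The 25 of them were 421 to 884 bp wide with a median of 618 bp, and scored 102 to 736 with a median of 179 (interquartile range 134 to 271). The strongest was a peak of 786 bp at 15527722 to 15528507 with a score of 736, which ranked 26 in the whole list. The nearest other centre was 109 kb away. The second, 618 bp wide at 18178744 to 18179361, scored 652 and ranked 30, and 1 weak peak with a score of 17.6 had its centre 8613 bp away. There followed a gap in score down to the peaks at 7126944 to 7127631 (465), 7711431 to 7712101 (438) and 21872983 to 21873866 (431), and these 5 were all that reached 400. Those ranked 6 to 10 were at 16045725 to 16046375 (347), 603939 to 604712 (271), 12906670 to 12907129 (245), 18989007 to 18989722 (217.5) and 10753191 to 10753742 (217). Of the 25, 11 reached a score of 200 and 14 lay between 100 and 200. The lowest of them (102) ranked only 3778 among the 13745 peaks of the whole list, so a score of 100 was not rare there. The median score of the whole list was 57.7, against 20.4 on outer 3L.

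For 16 of these 25 peaks (64.0%, 44.5 to 79.8%) no other peak had its centre within 20 kb, and for 11 none within 50 kb. The same held for 92 of all 292 peaks (31.5%, 26.4 to 37.0%), with 20 of the 23 broad peaks (87.0%), 56 of the 111 other peaks (50.5%) and, by definition, none of the 133 grouped ones. Such isolation was therefore not particular to narrow strong peaks. The distance from an isolated peak to its nearest neighbour ran from 28191 bp to 291 kb, with a median of 74.0 kb. The most remote, at 4070406 to 4070946 (score 157), lay 291 kb from the nearest centre. The 10 isolated peaks with the highest scores were those at 15527722, 7126944, 7711431, 21872983, 12906670, 18989007 and 10753191, already described, with the peaks at 13913172 to 13913759 (204), 9685936 to 9686456 (179) and the one at 4070406. The 9 peaks with company within 20 kb had a median score of 144, against 191 for the 16 isolated ones. Their neighbours were weak, at up to 60.7, except for the couple at 3384522 to 3385202 and 3394858 to 3395278, whose centres were 10206 bp apart and which scored 144 and 134. One more narrow strong peak, at 3460459 to 3461111 (184), had its centre 65717 bp further on, which made 3 in that Mb. Between any narrow strong peak and the nearest other one the median distance was 192 kb.

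The limit of 100 did not fall in an empty range of scores. Just under it among peaks of at most 1 kb were those at 5241531 to 5242218 (99.9), 1442899 to 1443325 (98.8) and 11321943 to 11322434 (98.7), and just over it those at 16794777 to 16795200 (102) and 16170765 to 16171623 (103). In the outer part 29 peaks scored at least 100, and 4 of these were wider than 1 kb. One of these 4 was at 7978636 to 7979878 (127), the highest of the peaks between 1 and 4 kb. A couple only 271 bp apart, at 8013059 to 8015804 (112) and 8016076 to 8017105 (116), accounted for 2 more, and the last was at 20814509 to 20816143 (122). These 4 were picked out after their values had been seen.

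Narrow strong peaks were present in like numbers on the other outer arms, with intervals that overlapped. There were 25 on the outer part of 3L (8.56% of its peaks, 5.87 to 12.3%), 22 on 2L (7.28%, 4.86 to 10.8%), 26 on 3R (8.97%, 6.19 to 12.8%) and 26 on X (9.0%, 6.21 to 12.9%). This came to 1.13 per Mb on 3L, 1.06 on 2L, 1.04 on 3R, and 1.29 on X. Isolated ones numbered 16 on 3L, 15 on 2L, 18 on 3R and 14 on X. The median score of narrow strong peaks was 179 on 3L, 195 on 2L, 178 on 3R and 201 on X.

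Over all kinds of peak, the values of the outer part of 3L lay close to those of the other outer arms. Its 13.2 peaks per Mb lay between the 11.6 of 3R (10.3 to 13.0) and the 14.4 of X (12.7 to 16.1) and 14.6 of 2L (13.0 to 16.3). The median score was 20.4 on 3L, 18.8 on 2L, 21.0 on 3R and 24.9 on X. The median width on these arms, in the same order, was 462.5, 482.5, 462.5 and 464 bp. Groups held 46.2% of the peaks on 3L, 48.7% on 2L, 43.4% on 3R and 39.8% on X. The largest group was one of 23 peaks on 3L, against 9 on 2L, 8 on 3R and 11 on X. The centromere side of the same arm was denser. It had 47.1 peaks per Mb (38.9 to 56.5), a median score of 17.1 and 2 of 116 peaks with a score of at least 100 (1.72%, 0.47 to 6.07%), against 29 of 292 (9.93%, 7.0 to 13.9%) in the outer part. Since peaks of 1 list are not replicates, no test was run on these differences.

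**Figure D5:**
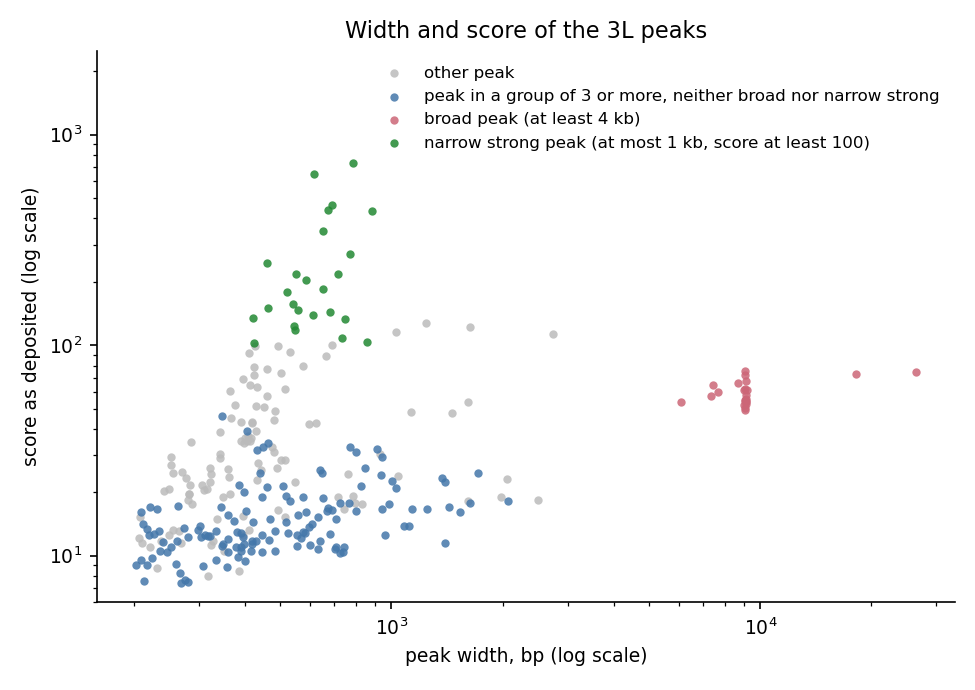
Each point is 1 of the 292 peaks, with its width in bp on the x axis and its score on the y axis, both on log scales, coloured by kind. Broad peaks form a tight cluster at scores of 49.1 to 75.7, with no peak of outer 3L in the range between 2746 and 6082 bp. The narrow strong peaks, which score at least 100 by definition, lie at widths of 421 to 884 bp.

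Width and score rose together across peaks of the outer part, with Spearman's rho of 0.47 and Pearson's r of 0.06 (n = 292 peaks of 1 list, which share their libraries and calling). Without broad peaks rho was 0.38 and r was 0.12. Among the 133 grouped peaks rho was 0.48, among the 25 narrow strong peaks 0.30 and among the 23 broad peaks 0.19. When only the 57 peaks at or over the list median were taken, which included 12 broad peaks, rho was -0.12.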

How the data were processed

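The deposited list was used as it stands. Per the file headers, its coordinates follow FlyBase release 5, and MACS made the calls. The submitters' processing notes name BWA, MACS2, 2 versions of CASAVA (1.7.0.3 and 1.7.0.2) and build BDGP5, in no stated role. The score of each peak is the authors' deposited value, with no scale stated. A threshold, and a way of combining replicates, was not given in the sources used here.

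Values were computed with pandas 2.3.3, numpy 2.4.6 and scipy 1.17.1 under Python 3.11.15, and plots with matplotlib 3.10.9. Groups are chains of centres within 5 kb. Kinds are exclusive, and a narrow strong or broad peak in a group counts under its own kind. The outer parts of 2L, 3R and X leave out the 10% of the span of peaks nearest the centromere. Densities use the span from the outermost base under a peak to the limit. Routines for grouping and merging were tested on simulated data. The members, kinds and limits were chosen with earlier results of these data known. Peaks named are the 5 outermost, the highest narrow strong, isolated and broad peaks (10 each), the 5 widest, the 5 largest groups, the top peak of the fullest bins, the 3 weakest, and 2 on each side of the limit. Others named were chosen after their values had been seen.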

Additional observations from a re-analysis of the deposited data

How the results depend on the processing

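No paired analysis was possible because none of the 6 libraries has a value in the list, so leaving out a replicate could not be tried either. Of 41 alternatives over 9 results, 29 stayed close to the value reported. Closeness was judged by a loose fold range for counts of peaks and by a 95% interval for the other results. For the share of covered bases, that interval took peaks and not bases as units. Counts of 11 and 21 isolated narrow strong peaks, against 16, thus passed as close. The share in the first 2 Mb, 15.4%, also passed, but it was set against the interval for 1 Mb. It is another quantity, so its closeness says nothing about the share in the first Mb. Limits of 3 and 5 kb for broad peaks could not change a value, since no outer 3L peak had a width between 2746 and 6082 bp. Among the 57 peaks that reached the list's median score, the first Mb held 3.51%, and 12 were broad with 81.5% of covered bases. Of these 57, 7.02% had a neighbour within 5 kb that was also among them, a count that leaves out weaker neighbours. The median score was 102, which the choice by score itself raises, and rho of width and score turned to -0.12. For the other values the cause was not tested. Merging peaks with gaps up to 400 bp left 211 regions, of which 35.5% had such a neighbour, with a median score of 27.5 and a rho of 0.21. A neighbour within 2 kb was found for 51.4%. The density relative to the outer parts of 2L, 3R and X together was 0.99 by peak centres and 1.15 by covered bases. A score of at least 200 left 11 narrow strong peaks. Leaving out the first Mb or, in an alternative added after the data had been seen, the first 20 kb kept the other results tried close to their values. The share of peaks in the first Mb has no value without that Mb.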
